A study of Mus musculus with 15 samples.

Results

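The cytosolic ribosomal protein genes are the genes whose array name begins with Rpl and a digit, Rps and a digit, or Rplp0 to Rplp2, leaving out the Rps6k kinases and names marked as pseudogenes. The rule found 85 gene names among the 34821 names on the array. Of these, 45 encode proteins of the large subunit and 30 encode proteins of the small subunit, and these 75 are called the ribosomal protein genes here. Another 9 names are paralogs, meaning relatives of a ribosomal protein gene under a name of their own, and 1 name, Rps19bp1, encodes a binding partner of Rps19 and not a ribosomal protein. Each gene was represented by its brightest probe.

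CD4 T cells of male mice were sorted by flow cytometry from the leukocytes of the lamina propria, the connective tissue layer of the small intestine. RNA was amplified with SuperAmp, a kit procedure for small cell numbers, and each sample was hybridised in Cy3 to its own Agilent array. The 3 groups held 5 arrays each: mice on normal chow (control), mice after 10 days of a high-fat diet (HFD day 10) and mice after 30 days of it (HFD day 30). The diet was used to alter the gut microbiota in a study of mice before and at the onset of diabetes. The labels give no day for the controls, no strain and no age, and whether each array stands for its own mouse is not stated. The p-values therefore describe the scatter among arrays, part or all of which could be technical.

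A ribosome joins 2 subunits of RNA and protein. The small subunit binds the messenger RNA and reads its codons, and the large subunit forms the peptide bonds and passes the new chain out through a tunnel. Most ribosomal proteins are needed in equal numbers, and many of their messenger RNAs begin with a run of C and T bases, the terminal oligopyrimidine (TOP) tract, through which mTOR signalling sets how much of them is translated. Resting T cells translate little, and their ribosome production goes up when they are activated.

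The probes are shown first because each value below is the signal of 1 stretch of 60 bases. These 7 were chosen because the results turn on them. Rps9 separated the day 30 arrays from the controls, and Rpl6 followed the common level most closely. These probes of Rplp1, Rpl27 and Rps19 departed from it, and Rps12 and Rps12l2 carry almost the same bases. Capitals in Rplp1 and Rps19 mark the longest run of at least 18 bases shared with a probe of another name, Gm13777 for Rplp1 and an unnamed transcript for Rps19. In Rps12 and Rps12l2 they mark the 23 bases that this pair shares. A probe without capitals shares no run of that length. The Rps12l2 probe shown is that name's second brightest.
Rps9: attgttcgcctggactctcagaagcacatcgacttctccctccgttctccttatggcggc
Rpl6: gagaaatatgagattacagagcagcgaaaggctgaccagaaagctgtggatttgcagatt
Rplp1: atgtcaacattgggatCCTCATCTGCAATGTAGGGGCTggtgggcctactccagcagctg
Rpl27: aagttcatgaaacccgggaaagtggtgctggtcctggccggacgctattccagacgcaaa
Rps19: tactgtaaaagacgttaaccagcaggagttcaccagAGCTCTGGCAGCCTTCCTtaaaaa
Rps12: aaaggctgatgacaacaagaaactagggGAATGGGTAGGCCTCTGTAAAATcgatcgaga
Rps12l2: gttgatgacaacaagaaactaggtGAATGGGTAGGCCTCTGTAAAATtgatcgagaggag

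The array's annotation, in build mm9, places the Rps9 probe at chr7:3658287-3658346 on the plus strand and the Rpl27 probe at chr11:101304045-101304104 on the plus strand. The Rplp1 probe lies at chr9:61761259-61761318 on the minus strand and the Rps19 probe at chr7:25670166-25670225 on the plus strand. The Rpl6 probe, at chr5:121658582-121658847 on the plus strand, and the Rps12 probe, at chr10:23505428-23505711 on the minus strand, each cover more than 60 bases of genome and so cross an exon junction. Of the 75 brightest probes, 19 cover more than 60 bases in this way. Laid side by side without gaps, the Rps12 and Rps12l2 probes overlap by 56 bases and are identical at 53 of them. Counted from 1 at the 5′ end of the Rps12 probe, they differ by C6T, G28T and C52T. The Rps12l2 probe lies at chr8:37089026-37089085 on the plus strand, on another chromosome than Rps12. For 5 of the 75 genes (Rpl36, Rpl37a, Rps27, Rps29 and Rps4x) the annotated probe position is on another chromosome than the RefSeq gene of that name, and 40 of the 75 probes share a run of at least 18 bases with a probe of another name. Signal from such copies and from the named gene cannot be told apart.

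Every one of the 75 ribosomal protein genes exceeded background clearly on each of the 15 arrays, as did 11597 of the 34821 gene names. The share of spots well above background ranged from 50.9% to 82.0% in the controls, from 55.3% to 61.9% at day 10 and from 45.2% to 59.5% at day 30. The extremes were control replicate 1, highest, and day 30 replicate 3, lowest. The 8 T cell markers examined, Cd3e and Cd4 among them, were above background on each array, and their means were higher at day 30 than in the controls for 8 of 8, with a median of 0.37 log2. The 7 epithelial markers had higher means for 2 of 7, with a median of -0.27. Of the tested B and plasma cell markers, 3 of 4 had higher means, with a median of 1.51. For macrophage and dendritic cell markers it was 2 of 3, with a median of 0.52. The 2 stromal markers tested were both lower, with a median of -1.05, and the 1 CD8 T cell marker tested differed by -1.21. None passed an adjusted p of 0.05 in limma, and the part of any of these cells in the results below was not tested. Of markers of other cells, Cd8b1, Ms4a1, Itgax and C1qa were above background on 2 arrays at most. Others were detected more widely: Cd8a on 12 arrays, Cd79b of B cells on 13, Emr1 of macrophages on 11 and Pecam1 of endothelium on 13, and Pigr of epithelium, Csf1r of macrophages and Igj of plasma cells on all 15. The 5 controls and day 10 replicates 1 to 3 share slide 1, and day 10 replicates 4 and 5 share slide 2 with the 5 day 30 arrays.

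The ribosomal protein genes moved from array to array largely as 1 block. Each value is the log2 signal minus the array's 75th percentile, so that 0 is the level below which 75% of that array's probes lie. For each array, the deviation of every gene from its own mean over the 15 arrays was taken, and the median over the 75 genes is called the common level. The common level was -1.50, -0.19, 0.59, -0.16 and -0.17 in control replicates 1 to 5. At day 10 it was 0.051, -0.38, 0.069, 0.19 and 0.061, and at day 30 it was 0.50, 0.19, 0.88, -0.15 and 0.29. Control replicate 1 lay far below every other array and day 30 replicate 3 above every other array, and all 3 groups overlapped. The group means were -0.29 ± 0.75 in controls, -0.0027 ± 0.22 at day 10 and 0.34 ± 0.38 at day 30 (SD, n = 5 each). The level of an array depended on the scaling, though control replicate 1 was lowest under each. With the percentile over probes detected on all arrays, it ran from -0.62 to 0.19, and control replicate 3 was at 0.036. The highest array was day 30 replicate 5, at 0.20, with quantile normalization. With each array centred on its median it was control replicate 3, at 1.36.

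In control replicate 1, 2 of the 75 genes were above their own mean, against 65 in control replicate 3 and 69 in day 30 replicate 3. In day 10 replicate 2, again 2 of the 75 were. The common level stood in nearly the reverse order of the share of spots well above background: the array with the highest share had the lowest common level, and the array with the lowest share had the highest. With that share as a covariate in the fit, the median difference of the tested names that match the rule was -0.067 for day 10 minus control and -0.15 for day 30 minus control, beside -0.0049 and 0.094 for all genes. In bulk RNA of sorted cells, fewer cells of a type and less RNA per cell cannot be told apart, and neither can a change in these genes and a change in the signals the arrays are scaled to.

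**Figure D1:**
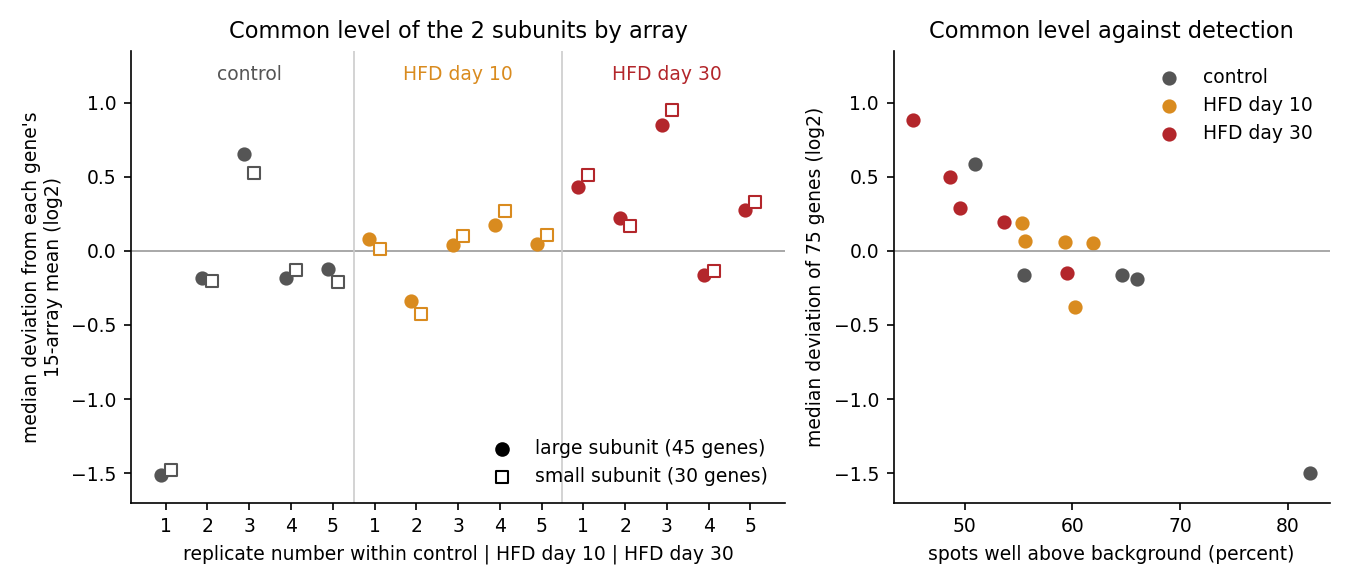
Left, the median deviation of the large subunit genes (filled circles, 45 genes) and of the small subunit genes (open squares, 30 genes) from each gene's 15-array mean, on the log2 scale, for each array; right, the median deviation of all 75 genes against the percent of spots well above background, 1 point per array. The 2 subunits lie almost on each other in every array, control replicate 1 is lowest at -1.50, and arrays with a larger share of detected spots have a lower common level.

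The first principal component of the 75 genes over the 15 arrays held 68.2% of their variance and the second 11.7%, and 74 of the 75 genes had a loading of the same sign on the first. The median SD of a gene over the 15 arrays was 0.62, and after the median of the other 74 genes was subtracted array by array it was 0.27. The SD was smaller after the subtraction for 68 genes and less than 50% of its former size for 49. Rpl6 followed the others most closely: its SD of 0.54 left 0.091. Rpl17, Rpl27a, Rpl7 and Rpl30 were next, with remaining SDs of 0.10, 0.11, 0.12 and 0.14. For 7 genes, each by its brightest probe, the SD did not become smaller: Rpl27, Rpl29, Rpl36, Rpl8, Rplp2, Rps19 and Rps3. As a description over 15 arrays that share their scaling, the Pearson correlation of a gene with the median of the others was 0.92 at the median, 0.99 for Rpl6 and 0.0020 for Rps19.

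**Figure D2:**
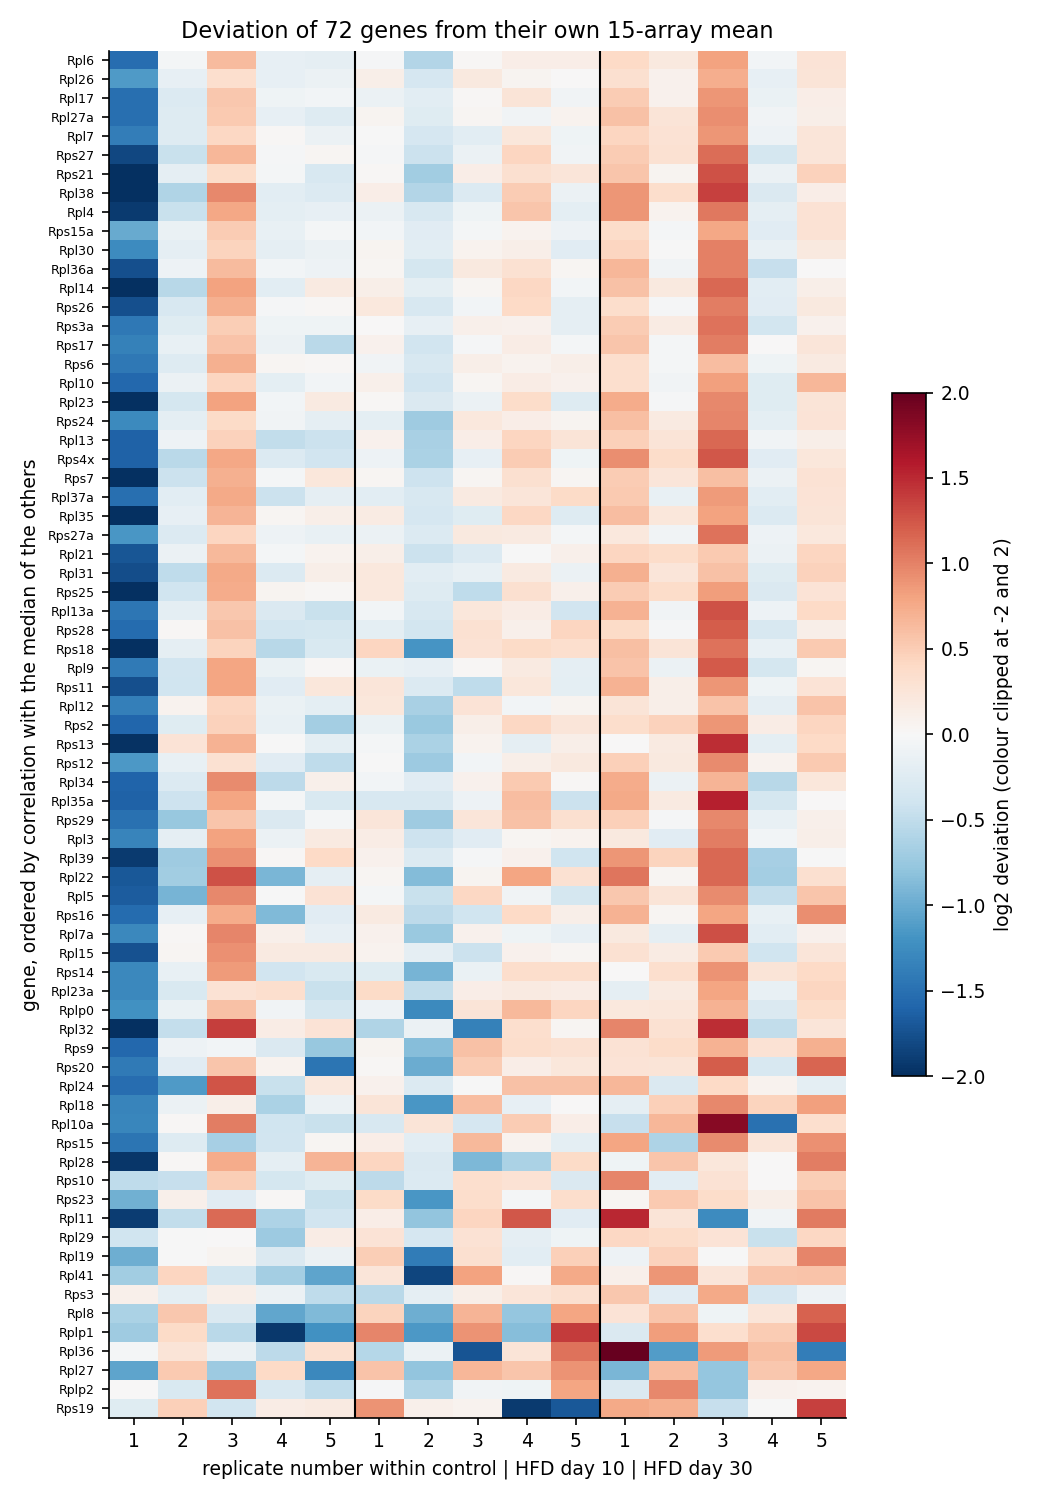
Deviation of 72 of the 75 ribosomal protein genes (rows) from its own mean over the 15 arrays (columns, in replicate order within control, HFD day 10 and HFD day 30), as log2 units in colour, with the genes ordered by their correlation with the median of the others. The column of control replicate 1 is blue in nearly every row and that of day 30 replicate 3 red, while the lowest rows, from Rpl8 to Rps19, have patterns of their own.

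The comparisons of the groups asked whether the ribosomal protein genes differ after 10 or 30 days of high-fat diet. On the 75th percentile scale nearly all of them had higher means at day 30 than in the controls, by a median near 0.62 log2, but the authors' deposited table and the fit with detection share gave a median below 0, and no single gene passed the test. No gene passed an adjusted p of 0.05 in the limma fit over all 25994 tested genes in any comparison (0% of genes tested in each), and so no member was called. At an unadjusted p under 0.05 limma left 673 genes for day 10 minus control, 1337 for day 30 minus control and 1068 for day 30 minus day 10. Of the 85 names, 83 were tested, and Rpl39l and Rpl3l, above background on 3 and 2 arrays, were not. The smallest adjusted p of a member was 1.00 for day 10 minus control, 0.93 for day 30 minus control and 1.00 for day 30 minus day 10 (limma). Day 10 minus control and day 30 minus control share the control arrays, so their values are given side by side and are not independent.

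At day 10, 72 of the 83 tested names had a mean above that of the controls, beside 49.9% of all genes tested, with a median difference of 0.25 log2 against -0.0016 for all genes. At day 30 minus control, 81 of 83 had a higher mean, beside 50.3% of all genes, with a median of 0.62 against 0.0050. For day 30 minus day 10 it was 80 of 83, beside 53.1%, with a median of 0.38 against 0.056. The differences of the 75 ribosomal protein genes ran from -0.54 to 1.06 at day 10 and from 0.020 to 1.34 at day 30 minus control. These counts moved with the setting too: in the deposited table of the authors the members with higher means were 48 of 83 at day 10, 24 at day 30 and 16 for day 30 minus day 10, and with the detection share in the fit 32, 29 and 33 did. Without control replicate 1, 41 had higher means at day 10 and 79 at day 30. Because the 75 genes follow 1 common level, the count of genes that lie on 1 side repeats that level and not 75 separate observations.

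At an unadjusted p under 0.05, 24 members lay past it for day 30 minus control, beside 5.14% of all genes. Of these, 23 were higher and 1 was lower, beside 2.47% of all genes higher and 2.67% lower. For day 10 minus control, 0 members lay past it, beside 2.59% of all genes (0.889% higher and 1.70% lower), and for day 30 minus day 10 also 0, beside 4.11% (1.82% higher and 2.29% lower). The count of 24 depended on the setting: it was 2 with slide in the fit, 2 in the authors' deposited table, 3 with the detection share as a term, 9 with the percentile over probes detected on all arrays, 10 with quantile normalization, 13 with each array centred on its median, and 15 with array weights or with only the compared groups fitted. It also depended on single arrays, being 7 without control replicate 1, 8 without day 30 replicate 3, 12 without day 30 replicate 5, 13 without day 30 replicate 1 and 13 without control replicate 5, but 33 without day 30 replicate 4 and 54 without control replicate 3.

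The median difference moved with the same arrays. Without control replicate 1 the median for day 30 minus control was 0.30, and the median for day 10 minus control was -0.0027. Without control replicate 3 the day 10 value was 0.46, and without day 30 replicate 3 the median for day 30 minus day 10 was 0.25. Blocked on slide, the fit gave medians of 0.18 for day 10 minus control, 0.37 for day 30 minus control and 0.24 for day 30 minus day 10. No slide holds both controls and day 30 arrays. By design, day 10 minus control in this fit is then the difference within slide 1. Day 30 minus day 10 is the difference within slide 2. For each gene, day 30 minus control adds these 2 steps. They pass through day 10 replicates 1 to 3 on slide 1 and replicates 4 and 5 on slide 2. Relative to the median of all genes, the day 30 minus control median was 0.61 higher with the 75th percentile, 0.21 with quantile normalization and 0.16 in the authors' deposited table, where the members' own median was -0.076.

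**Figure D3:**
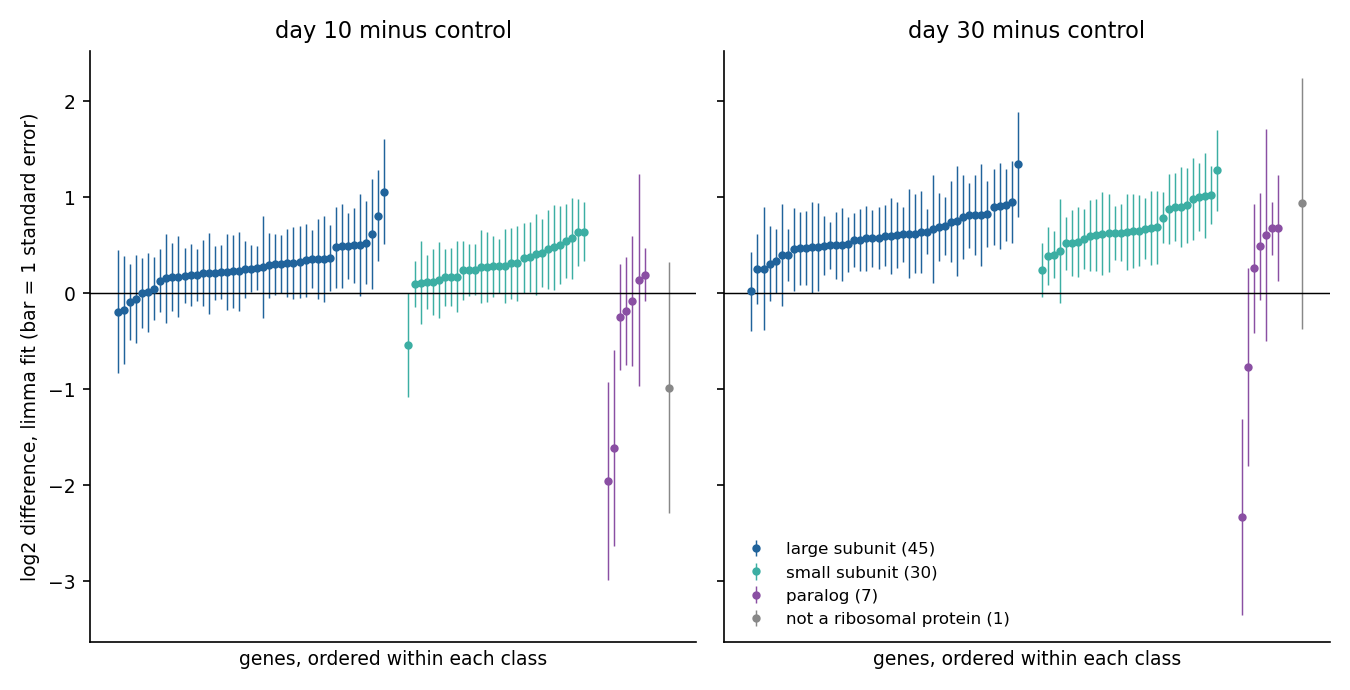
Log2 difference of each tested member from the control mean at day 10 (left) and day 30 (right), with bars of 1 standard error from the limma fit, by class and ordered within it. At day 30 the large subunit genes run from 0.020 to 1.34 and the small subunit genes from 0.24 to 1.28, while the paralogs reach from -2.33 to 0.68.

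**Figure D4:**
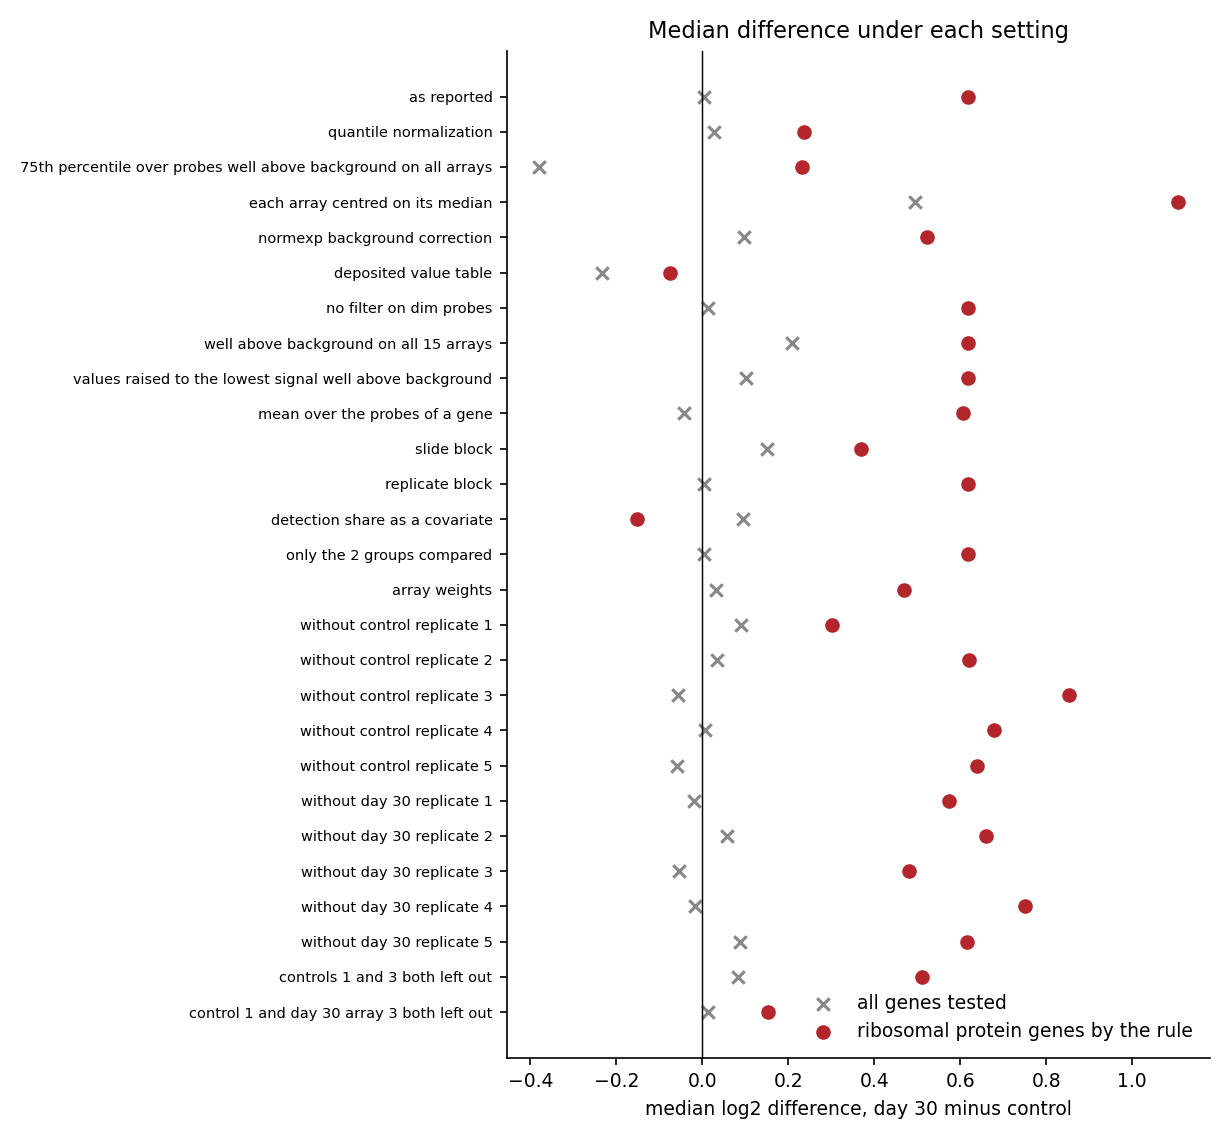
Median log2 difference, day 30 minus control, of the tested members (red points) and of all genes tested (grey crosses) under each setting. The members' median is 0.62 as reported, 0.30 without control replicate 1 and -0.15 when the detection share enters the fit.

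The large and small subunit genes had similar medians in each comparison. Their median differences were 0.26 and 0.28 for day 10 minus control, 0.60 and 0.64 for day 30 minus control, and 0.34 and 0.40 for day 30 minus day 10. Large minus small was thus -0.024, -0.041 and -0.064. The pooled SD of large minus small between arrays was 0.074. That SD describes single arrays and is not the error of a difference between groups of 5. The value for day 30 minus control depended on the setting. It was -0.13 without control replicate 3, -0.10 without control replicate 1, -0.093 as the mean over a gene's probes and -0.15 with the detection share in the fit. For day 30 minus day 10 it was -0.089 both over the mean of the probes and with the detection share. By array, large minus small was -0.032, 0.021, 0.13, -0.049 and 0.092 in the controls, 0.068, 0.089, -0.067, -0.094 and -0.062 at day 10 and -0.077, 0.054, -0.095, -0.027 and -0.058 at day 30. Both signs occur in each group, and the groups overlap. The group means were 0.032 ± 0.077 in the controls, -0.013 ± 0.085 at day 10 and -0.041 ± 0.059 at day 30 (SD, n = 5), and their differences were not tested. The lowest common level of all, in control replicate 1, was -1.51 for the large and -1.48 for the small subunit. At day 30 minus control, 9 of the 45 large subunit genes and 13 of the 30 small subunit genes had an unadjusted p under 0.05 in limma. All of them were higher, beside 2.47% of all genes tested. Over all members the count was 24, but 2 with slide in the fit and 2 in the deposited table. Genes that follow 1 common level are not separate observations, and the difference between the subunit counts was not tested.

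Among the small subunit genes, Rps9, whose protein joins the subunit early in its assembly, had the smallest p. Rps9 was 5.35, 6.81, 6.86, 6.64 and 6.16 in control replicates 1 to 5, 6.97, 6.06, 7.51, 7.27 and 7.22 at day 10 and 7.21, 7.29, 7.61, 7.20 and 7.63 at day 30. Every day 30 array lay above every control array, while day 10 spanned both. All controls are on slide 1 and all day 30 arrays on slide 2, so diet and slide cannot be told apart in this separation. Its difference was 1.02 ± 0.30 (SE), a fold of 2.03, for day 30 minus control (limma adjusted p = 0.93) and 0.64 ± 0.30 for day 10 minus control (limma adjusted p = 1.00). Rps9 was one of 2 members whose day 30 and control arrays did not overlap, both with day 30 higher, beside 0.212% of all genes tested that were separated with day 30 higher and 0.396% with day 30 lower. No member was separated in the other comparisons, beside 0.119% of genes higher and 0.300% lower at day 10, and 0.285% higher and 0.289% lower for day 30 minus day 10.

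Rps15, which lies near the decoding site, was 3.14, 4.34, 3.94, 4.22 and 4.64 in the controls, 4.73, 4.39, 5.25, 4.67 and 4.40 at day 10 and 5.39, 3.99, 5.55, 4.85 and 5.51 at day 30. Day 30 replicate 2 lay within the controls and the other day 30 arrays above them. The difference was 1.00 ± 0.35, and its other probe gave 0.87. Rps12 differed by 0.78 ± 0.27 (limma adjusted p = 0.93 for both).

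Rps6, the protein that S6 kinases phosphorylate downstream of mTOR, was 5.26, 6.43, 7.41, 6.73 and 6.72 in the controls, 6.63, 6.37, 6.81, 6.76 and 6.82 at day 10 and 7.03, 6.66, 7.31, 6.61 and 6.88 at day 30. The controls alone held both the lowest and the highest array. Its difference at day 30 was 0.39 ± 0.30 and at day 10 0.17 ± 0.30. Rpl29, Rps3, Rps15a and Rpl26 had the smallest SDs over the 15 arrays, from 0.36 to 0.41. Rps15a was among the steadiest, with 7.13 ± 0.54 in the controls, 7.22 ± 0.11 at day 10 and 7.53 ± 0.39 at day 30 (SD, n = 5). Rps3, which lines the entry of the messenger RNA channel, was lower in spread, but its brightest probe did not follow the common level. That probe was 4.51 in control replicate 1, where most genes were at their lowest. It differed by 0.24 at day 30, and the other 2 Rps3 probes by 0.81 and 0.92. The Pearson correlation with the median of the other genes was 0.39 for the brightest probe and 0.85 and 0.82 for the other 2.

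Among the large subunit genes, Rpl6 was 4.37, 5.86, 6.53, 5.73 and 5.72 in the controls, 5.87, 5.31, 5.92, 6.03 and 6.03 at day 10 and 6.29, 6.09, 6.70, 5.84 and 6.18 at day 30. It repeats the common level, with control replicate 1 lowest and day 30 replicate 3 highest. Its difference was 0.58 ± 0.32 at day 30.

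Rpl5 and Rpl11 form, with the smallest ribosomal RNA, the particle that binds Mdm2 when ribosome assembly is disturbed. Rpl5 was 4.56 ± 1.04 in the controls, 4.74 ± 0.34 at day 10 and 5.20 ± 0.53 at day 30, and Rpl11 was 3.53 ± 1.07, 4.14 ± 0.76 and 4.28 ± 1.07 (SD, n = 5). In day 30 replicate 3 they parted: Rpl5 was 5.78, its highest at day 30, and Rpl11 was 2.73, its lowest at day 30. The 2 other Rpl11 probes followed the brightest one with a Pearson correlation of 0.97 and 0.96 over the 15 arrays. Rpl13a, known as an inhibitor of translation of some inflammatory messages, differed by 0.81 ± 0.34 at day 30, and Rpl10, which joins the subunit late, by 0.60 ± 0.32.

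Rpl22, without which the development of alpha-beta T cells stalls, was 0.83, 1.85, 3.81, 1.62 and 2.36 in the controls, 2.57, 1.66, 2.59, 3.33 and 2.83 at day 10 and 3.60, 2.58, 3.68, 1.85 and 2.85 at day 30. The controls held both its lowest and its highest array. Its difference was 0.82 ± 0.53 at day 30 (limma adjusted p = 0.93) and 0.013 with slide as a block.

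The stalk genes did not move alike. Rplp0, Rplp1 and Rplp2 encode the acidic stalk of the large subunit, which calls in the elongation factors. Rplp1 was 2.48, 3.56, 2.64, 1.25 and 1.97 in the controls, 4.16, 2.04, 4.08, 2.32 and 4.58 at day 10 and 2.90, 4.02, 3.52, 3.68 and 4.51 at day 30. Its day 10 arrays fell apart into 3 high and 2 low values, and control replicate 2 lay within the day 30 range. The difference was 1.06 ± 0.55 at day 10 and 1.34 ± 0.55 at day 30, the largest of the 75 genes in both (limma adjusted p = 1.00 and 0.93).

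Rplp2, its partner in the stalk, was 2.59, 2.28, 3.67, 2.27 and 2.08 in the controls, 2.56, 1.98, 2.51, 2.51 and 3.37 at day 10 and 2.30, 3.55, 1.82, 2.67 and 2.65 at day 30. The 3 groups covered nearly the same range, and the differences were 0.0084 ± 0.41 and 0.020 ± 0.41, the smallest at day 30 of the 75 genes. The sign of the day 30 value changed under other scalings, from 0.020 to -0.30 with quantile normalization and -0.37 with the 75th percentile of the probes detected on all arrays. Rplp0 was 3.39, 4.47, 5.19, 4.54 and 4.26 in the controls, 4.51, 3.33, 4.86, 5.25 and 5.04 at day 10 and 4.81, 4.83, 5.31, 4.31 and 4.97 at day 30. It lay between the others, with differences of 0.23 ± 0.38 and 0.47 ± 0.38. The second Rplp1 probe differed by 0.29 at day 10 and 0.96 at day 30. Its Pearson correlation with the median of the other genes was 0.77, beside 0.29 for the brightest Rplp1 probe. It shares a run of 52 bases with a probe of another name. Differences among the stalk genes were not tested.

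Several genes shared a second pattern. Rplp1, Rpl41, Rpl27 and Rpl8 had the strongest loadings of 1 sign on the second component, at -0.45, -0.33, -0.32 and -0.32. Rpl8 lies at the site where peptide bonds form, and Rpl41 is the smallest of the ribosomal proteins. Over the 15 arrays the Pearson correlation was 0.95 between Rplp1 and Rpl8, 0.86 between Rpl41 and Rpl8 and 0.84 between Rplp1 and Rpl41, as descriptions of arrays that share their scaling. Rpl8 was 5.36, 6.53, 5.70, 4.96 and 5.11 in the controls, 6.45, 5.01, 6.68, 5.22 and 6.78 at day 10 and 6.27, 6.56, 5.91, 6.24 and 7.18 at day 30. Control replicate 2 and day 10 replicates 1, 3 and 5 were high for both Rplp1 and Rpl8. At day 30 minus control Rpl8 differed by 0.90 ± 0.39 and Rpl41 by 0.95 ± 0.43 (limma adjusted p = 0.93 for both).

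Rpl27, a large subunit protein on the surface, was 3.25, 4.84, 3.58, 4.72 and 3.03 in the controls, 4.88, 3.52, 4.98, 4.87 and 5.21 at day 10 and 3.39, 4.93, 3.53, 4.85 and 5.09 at day 30. Its arrays formed a low set from 3.03 to 3.58 and a high set from 4.72 to 5.21, with arrays of every group in each. The differences were 0.81 ± 0.47 at day 10, 0.48 ± 0.47 at day 30 and -0.33 ± 0.47 for day 30 minus day 10. The 2 probes of the gene did not follow each other, with a Pearson correlation of -0.062 over 15 arrays. With the median of the other genes the correlation was 0.14 for the brightest probe and 0.67 for the other. The departure from the common level is thus mainly that of the brightest probe. The other probe, which shares a run of 54 bases with a probe of another name, differed by -0.12 at day 10, 0.65 at day 30 and 0.77 for day 30 minus day 10.

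Rps19, the gene most often mutated in Diamond-Blackfan anaemia, was 1.44, 2.16, 1.31, 1.84 and 1.86 in the controls, 2.58, 1.79, 1.76, -0.22 and -0.0020 at day 10 and 2.44, 2.40, 1.23, 1.68 and 3.06 at day 30. The low day 10 arrays are replicates 4 and 5, the 2 day 10 arrays on slide 2. The difference was -0.54 ± 0.54 at day 10, the lowest of the 75 genes. In the fit blocked on slide it was 0.32, by design the value within slide 1. For day 30 minus control it was 0.44 ± 0.54, and 2.59 blocked on slide. For day 30 minus day 10 it was 0.98 ± 0.54, the highest of the small subunit genes (limma adjusted p = 1.00), and 2.27 blocked on slide. Rpl36 was 2.21, 2.51, 2.13, 1.74 and 2.58 in the controls, 1.69, 2.14, 0.53, 2.52 and 3.33 at day 10 and 4.47, 1.14, 3.11, 2.85 and 0.88 at day 30. Both high-fat diet groups were spread on both sides of the controls, and the difference was 0.26 ± 0.64 at day 30. Its probe ends in 6 A bases, as only 2 of the 75 do, and is placed on chromosome 11, while RefSeq has the gene on chromosome 17.

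**Figure D5:**
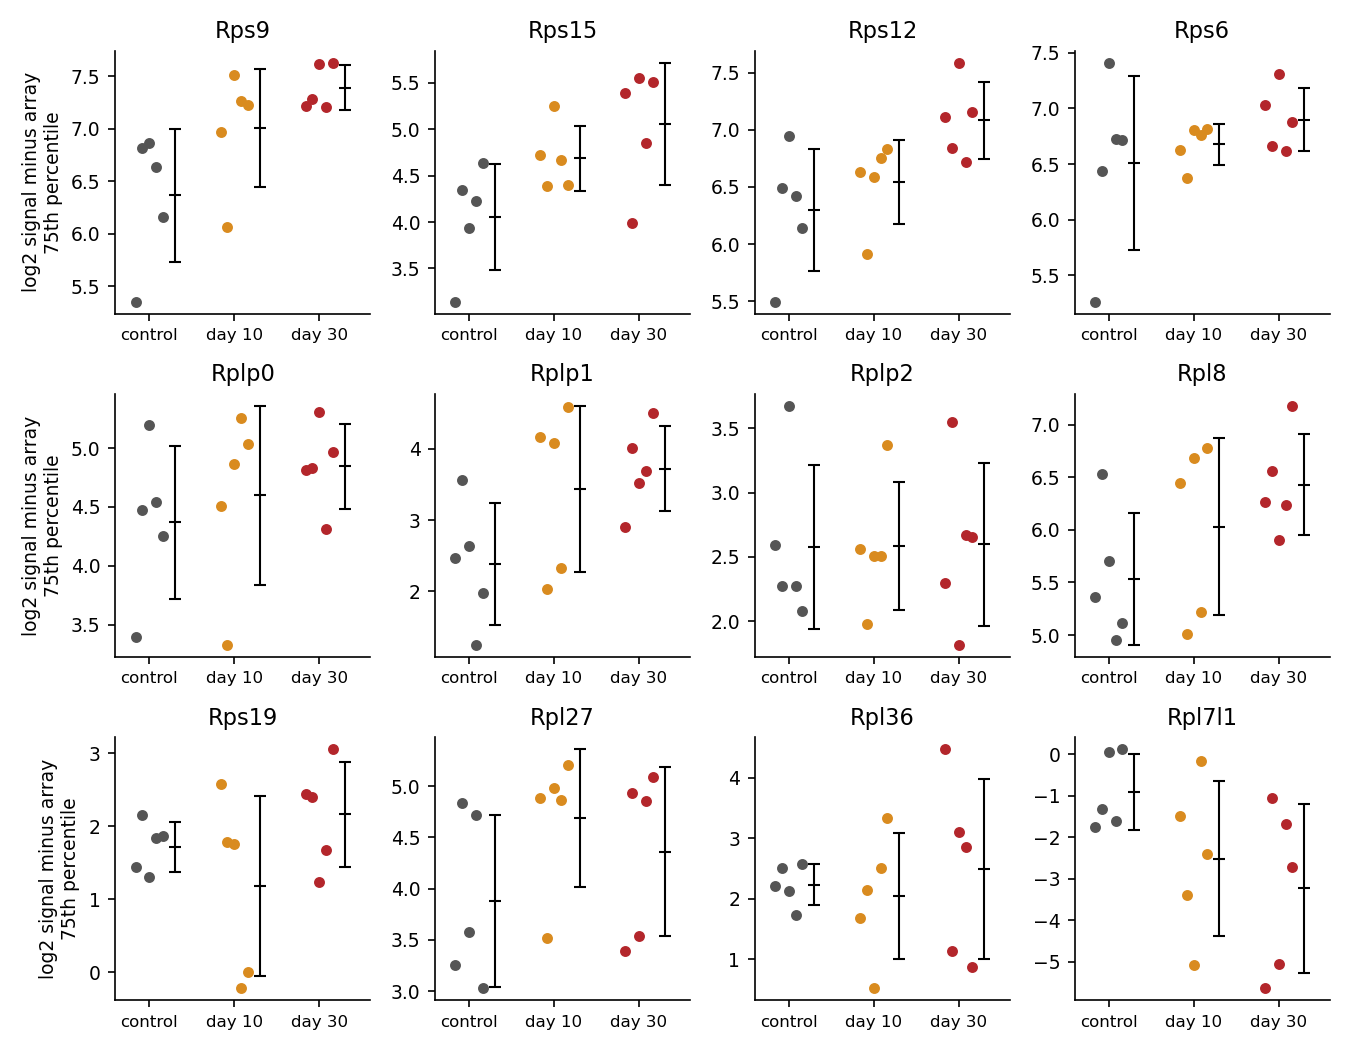
Values of 12 members in each array as log2 signal minus the array's 75th percentile, by group, with the group mean and 1 SD beside the points (n = 5); each panel has its own axis. Rps9 has every day 30 point above every control point, Rplp2 covers nearly the same range in the 3 groups, and Rpl27 falls into a low and a high set.

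Single members were also set against the common level, by centring each array on the median of the 75 genes. This choice was made after the values were seen. No gene passed an adjusted p of 0.05 in limma on this scale (0% of genes tested in each comparison). At an unadjusted p under 0.05, 2 members lay past it for day 30 minus control, beside 7.41% of all genes. One of them was Rpl7l1 at -2.96 (limma adjusted p = 0.61). For day 10 minus control it was 0 members beside 2.87% of genes, and for day 30 minus day 10 it was 0 beside 4.06%. Relative to the common level Rps9 was 0.39, Rpl6 -0.053, Rplp1 0.72 and Rplp2 -0.61 for day 30 minus control.

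Of the 9 paralogs 7 were tested. Of these, 2 had higher means at day 10 than in the controls and 5 at day 30. Rpl7l1, a relative of Rpl7, was -1.75, -1.32, 0.062, -1.60 and 0.13 in the controls, -1.48, -3.40, -5.08, -0.17 and -2.41 at day 10 and -5.63, -1.05, -5.06, -1.68 and -2.71 at day 30. It exceeded background on 5 control arrays, 4 at day 10 and 3 at day 30, and the groups overlapped. The difference was -2.33 ± 1.02 at day 30, the lowest of all members (limma adjusted p = 0.93), while Rpl7 differed by 0.61 ± 0.28. The difference between Rpl7l1 and Rpl7 was not tested.

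Rpl10l, known from the testis, was above background on 4 control arrays, 1 at day 10 and 3 at day 30, with differences of -1.96 ± 1.03 and -0.77 ± 1.03. Rpl22l1 differed by -0.081 ± 0.68 and 0.26 ± 0.68, beside 0.50 ± 0.53 and 0.82 ± 0.53 for Rpl22. Rpl36al differed by -0.24 ± 0.55 and 0.68 ± 0.55, beside 0.32 ± 0.38 and 0.51 ± 0.38 for Rpl36a. Rps27l, a gene that p53 can switch on, ranged from -3.12 to 2.42 within the controls alone and differed by 0.61 ± 1.10 at day 30, beside 0.68 ± 0.38 for Rps27. Rps4y2, which RefSeq lists as Rps4l, was low in every group, at -1.97 ± 0.55, -2.15 ± 0.37 and -1.48 ± 0.91 (SD, n = 5). It differed by 0.49 ± 0.56 at day 30, beside 0.92 ± 0.39 for Rps4x.

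Rps12l2, by its brightest probe, was 5.17, 6.10, 6.66, 6.07 and 5.72 in the controls, 6.18, 5.57, 6.20, 6.37 and 6.37 at day 10 and 6.73, 6.36, 7.19, 6.22 and 6.60 at day 30. The order of the arrays within each group was close to that of Rps12, and the difference at day 30 was 0.68 ± 0.28 beside 0.78 ± 0.27. Its second brightest probe, shown above, repeats the Rps12 bases almost in full, so signal of these names cannot be told apart. Rpl3l, known from muscle, and Rpl39l, known from the testis, were near background, and their partners Rpl3 and Rpl39 differed by 0.34 ± 0.33 and 0.62 ± 0.46. Rps19bp1 differed by -0.98 ± 1.31 and 0.94 ± 1.31.

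Other probes of the same genes gave similar medians. Of the 75 genes, 60 had more than 1 probe above background on at least 5 arrays, 173 probes in all. All probes of a gene had the same sign in 45 of the 60 for day 10 minus control, 50 for day 30 minus control and 47 for day 30 minus day 10. Over the 98 probes that were not the brightest, the median difference was 0.25, 0.60 and 0.34. Of these 98 probes, 68 had a Pearson correlation above 0.8 with the brightest probe of their gene over the 15 arrays, and the median was 0.95. Dim probes of Rpl14 and Rpl6 were among the lowest, at -0.43 and -0.31. As a description across the 75 genes, which are not independent, the correlation of a gene with the common level had a Spearman correlation of 0.51 with its mean signal and -0.36 with the share of G and C in its probe, which ran from 30% to 55%.

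Genes that work with the ribosome were read from lists chosen for their role. Of ribosomal proteins outside the naming rule, Rpsa differed by 0.27 at day 10 and 0.72 at day 30, Fau by 0.51 and 0.73, and Gnb2l1 by 0.43 and 0.78. Of the 17 elongation factors and other TOP genes, 15 had higher means at day 10 and 14 at day 30, with medians of 0.22 and 0.51. Eef2, which moves the ribosome along, differed by 0.81 at day 30, and Eef1a1, which delivers the transfer RNAs, by 0.51. Eef1a1 also followed the common level closely, with a Pearson correlation of 0.98 over the 15 arrays, a description of a gene chosen after its values were seen. This was not particular to genes that work with the ribosome. Tmem66, Pnrc1, Rgs1 and Hk1, which are on none of these lists and were chosen in the same way, were each at 0.98 too. Eif3h and Eif3e, of the initiation factor that holds the small subunit, differed by -0.35 and -0.21 at day 30.

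The 40 genes of ribosome biogenesis, the making of the subunits in the nucleolus, were more mixed: 25 had higher means at day 10 and 26 at day 30, with medians of 0.16 and 0.44 and a range at day 30 from -3.26 to 2.80. Of the 11 genes of growth signalling to the ribosome, 8 had higher means at each day, with medians of 0.55 and 0.77. Rptor, the mTOR partner that recruits its substrates, differed by 2.98 at day 10 and 3.58 at day 30, and Myc, which drives ribosome production, by -2.81 and -0.75. None passed the test, and the smallest limma adjusted p in these 4 lists was 0.77, for Rptor at day 30. Of the 74 tested mitochondrial ribosomal protein genes, which serve a separate ribosome, 44 had higher means at day 10 and 41 at day 30, with medians of 0.26 and 0.14.

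Promoters were looked at because the genes followed a common level. RefSeq (GRCm38.p6) start sites were matched for 55 of the 75 genes, with Rps3a found as Rps3a1, using the first start listed for a gene. These windows run from 10 bases before to 20 bases from the annotated start, and capitals mark the longest run of C and T within 5 bases of it. The run is 10 bases in Rps6 and Rplp2, 9 in Rps9, 6 in Rpl6, 5 in Rpl27 and 4 in Rps19. The median was 5 over the 55 genes, with a range from 1 to 21, and 3 over all genes.
Rps6: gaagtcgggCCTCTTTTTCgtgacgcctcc
Rplp2: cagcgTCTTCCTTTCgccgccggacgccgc
Rps9: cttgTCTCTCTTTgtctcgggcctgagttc
Rpl6: aCCTCCCgtcattgcttatagaccggaagc
Rpl27: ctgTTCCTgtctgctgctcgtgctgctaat
Rps19: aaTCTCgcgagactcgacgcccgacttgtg

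These lie, in GRCm38.p6, at chr4:86857348-86857377 on the minus strand for Rps6 and on the plus strand at chr7:141447641-141447670 for Rplp2, chr7:3704031-3704060 for Rps9, chr5:121204491-121204520 for Rpl6, chr11:101442235-101442264 for Rpl27 and chr7:24884582-24884611 for Rps19. A run of at least 8 was present at 19 of the 55 starts (34.5%), against 2602 of 27025 starts of all genes (9.63%). The letters CTTTC stood in the same 30 bases, on the strand of the gene, in 13 of the 55 (23.6%) and in 3.66% of all starts. On either strand it was 27.3% and 7.14%. CTTCC and CTCTT were searched in the same way. On the strand of the gene they stood in 20% and 18.2% of the 55, beside 6.48% and 3.96% of all starts. Run length differed among closely and among loosely following genes. Rps6 has a run of 10, and Rpl6, which followed the common level most closely, has a run of 6. Of the loosely following genes, Rplp2 has a run of 10 and Rps19 a run of 4.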

How the data were processed

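Scanner files of 15 one-colour arrays hold intensity values made by the authors with Agilent Feature Extraction 10.7.3.1 on a grid of build mm9, per the file headers; gProcessedSignal is already background-corrected within its array, and the other flag columns say whether a spot is well above background. The authors' deposited table holds log2 values, with their derivation not stated in the labels or headers. Outlier spots and 1 damaged line were left out, spots of a probe were averaged (55681 probes), and log2 intensity minus each array's 75th percentile was used. A gene is its brightest probe, tested if well above background on at least 5 of 15 arrays (25994 genes). The 3 groups were fitted together in limma 3.58.1 (R 4.3.3, lmFit and eBayes with an intensity trend), two-sided, with Benjamini-Hochberg adjustment at 0.05. The fit was also run on simulated data with independent noise for each gene. Such data lack the common level of these genes, so they do not test the fit in that setting. The number of arrays limits the precision.

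Named members were, for each comparison, the 5 with the smallest p and the 5 farthest from the members' median, the 5 largest and 5 smallest SDs, the stalk and other genes listed by role, and each paralog with its partner. Genes named for how closely they followed the common level or for the second pattern (such as Rpl6, Rpl17, Rpl8 and Rpl41) were chosen after their values were seen. A few genes that the rule or lists name are not reported here; counts and medians include them. The members and lists were chosen with earlier results of these data known. Ribosome proteins outside the naming rule, TOP genes, biogenesis genes, growth signalling genes and cell type markers were listed by name. Alternatives covered scaling, background, filter, probe rule, value table, slide, replicate number, detection share, array weights and leaving out each array.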

Additional observations from a re-analysis of the deposited data

Results flagged for a closer look

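In 7 of the 105 groups of 5 values examined (32 named members and 3 measures per array, in each group), the lowest array stood apart from the other 4 by more than Dixon's test allows. Chance alone gives about 1 in 20. Day 10 replicate 2 accounts for 5 of them: the common level of the 75 genes was -0.38 there against 0.051 for the next array, Rpl27 was 3.52 against 4.87, Rps12 was 5.91 against 6.58, Rps12l2 was 5.57 against 6.18 and Rpl10 was 5.94 against 6.36. Rps12 and Rps12l2 share most of their bases, and all 5 follow the same array, so they are not separate observations. Rpl29 was 3.85 in day 30 replicate 4 against 4.57 for the next day 30 array, and Rps4y2 was -2.80 in day 10 replicate 1 against -2.13.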

How the results depend on the processing

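Of 864 alternative values for 32 results under 34 settings, 839 kept their direction and their side of the threshold or stayed within 1 SD between arrays. For the members' median that SD was 0.50, above the values of 0.25 for day 10 minus control and 0.38 for day 30 minus day 10. Changes of sign in these medians, such as -0.067 at day 10 with detection share as a covariate, are therefore among the 839. The count does not show that these medians are steady. The median difference of the members for day 30 minus control was -0.076 in the authors' deposited table, where that of all genes was -0.23, and -0.15 with detection share as a covariate. Leaving out 1 array gave 0.30 to 0.85 for it, -0.0027 to 0.46 for day 10 minus control and 0.25 to 0.48 for day 30 minus day 10. Large minus small for day 30 minus control was -0.15 with the covariate and -0.13 to -0.041 without 1 array. For day 30 minus day 10 it was 0.058 with slide as a block, by design the value within slide 2, and -0.078 to -0.0073 without 1 array.

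The count of genes past the threshold was 1 for day 30 minus control with slide as a block, and 0 to 2 for day 30 minus day 10 without 1 array (2 without day 10 replicate 4), none of them members. The replicate number does not pair the arrays: pairs of the same number in different groups correlated at -0.13 to 0.15 (median 0.0095), and 3 of 15 arrays correlated best with their own number. With replicate number as a block the medians were 0.25, 0.62 and 0.38 and 0 genes were called.

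Rplp2 for day 30 minus control was -0.30 with quantile normalization, -0.37 with the percentile over probes detected on all arrays, -0.40 in the deposited table, -0.57 with slide as a block, -0.022 with the covariate, -0.61 centred on the ribosomal protein median, and -0.22 to 0.29 without 1 array. Rpl10l was 0.030 with normexp and 1.22 with slide as a block. For day 10 minus control Rps19 was 0.32 with slide as a block, by design the value within slide 1. Rps19bp1 for day 10 minus control was 0.050 in the deposited table and -1.65 to 0.32 without 1 array. Rpl27 for day 30 minus day 10 was 0.22 as the mean of its probes. The cause of these changes was not tested. Leaving out control replicate 1 and day 30 replicate 3 together gave a median of 0.15 for day 30 minus control. This setting and the centring on the ribosomal protein median were added after the data were seen. Dim members (Rpl7l1, Rpl10l, Rpl39l and Rpl3l) are limited by signal over background.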
